A study of Caenorhabditis elegans with 12 samples.

Results

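The genes described here are the C-type lectin genes of *Caenorhabditis elegans*, taken as every gene that carries a name of the form clec followed by a number. A total of 265 of the 46778 genes with a value had such a name, 240 of them protein-coding genes and 25 annotated pseudogenes. The name came from the Ensembl gene table for 240 genes and, for the 25 pseudogenes, from RefSeq through the sequence name. RNA was sequenced from whole adult worms of the wild-type strain N2 in 4 groups of 3 replicates, 12 libraries in all. *control(RNAi)* worms, called WT below, and *lpin-1(RNAi)* worms (spelled lpn-1 RNAi in the labels) were each divided between control diets and glucose-rich diets. All worms, controls included, were fed RNAi bacteria from the egg onwards on plates with 10 mM IPTG, the inducer of the double-stranded RNA, and were moved as day 1 adults to plates with 10 µM FUdR, a compound that stops progeny from developing. Those on glucose-rich diets received 2% added glucose. *lpin-1* encodes lipin, an enzyme that makes diacylglycerol from phosphatidic acid and can also act on transcription, and RNAi lowers its RNA without removing the gene.

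C-type lectin-like domains are compact protein folds that in many animals bind sugars, often with calcium. The worm has a large family of proteins with such a domain, most of them predicted to be secreted, and many are made in the intestine, the tissue that meets the bacteria the worm eats. A number of clec genes are known from *C. elegans* work on bacterial infection, since their RNA changes when worms meet a pathogen or since mutants differ in survival. For most members neither the ligand nor the function is known, so members below are described by their position, level and response, and a role is given only for those with one.

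The deposited values are expected counts, in which a read that matches several genes can be divided among them, and they were rounded to whole numbers. Library totals ran from 16546027 to 31534284 counts. Levels are given in CPM, the rounded count of a gene as parts per 1e6 of a library total that was first multiplied by a TMM factor. That factor was 0.903 to 0.968 in the 6 WT libraries and 1.03 to 1.17 in the 6 *lpin-1(RNAi)* libraries. The RNA of *lpin-1* itself stood at 167, 163 and 144 CPM in the 3 WT libraries on control diets and at 88.2, 94.7 and 84.9 CPM in the *lpin-1(RNAi)* libraries on the same diets. The groups did not overlap, and the log2 fold change was -0.82 ± 0.10, adjusted *p* = 1.62e-05. On glucose-rich diets it was -0.56 ± 0.10, adjusted *p* = 0.000615. The sources used here do not say that replicates came from separate cultures, so *p*-values measure the spread between these libraries, which may be technical. No 2 replicates were copies, since the chi-square between their counts, divided by the number of genes, was 8.58 to 63.9. Errors of log2 fold changes are approximate standard errors (SE) throughout. Each is the size of the log2 fold change divided by the square root of the F statistic of edgeR's quasi-likelihood test.

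Of the 265 members, 104 passed the filter on low counts, all of them protein-coding, and were tested among 14696 genes. A gene can pass that filter through the group where it is high, so the 104 are not the whole family. The 161 members that did not pass included 35 with 0 counts in all 12 libraries and 15 that reached more than 10 counts in at least 1 library, with 28 counts as the highest value. Members lay on all 6 chromosomes, with 97 on chromosome V, 58 on IV, 51 on II, 38 on I, 18 on III and 3 on X. Of these 35, 31, 20, 8, 7 and 3 were tested, in the same order. A total of 177 members sat in 52 runs in which neighbouring members were at most 10 kb apart, the longest with 15 members, and 88 stood alone. Some reads of members were divided with other genes, members or not, as 19 members, 10 of these tested, had a fractional count in at least 1 library.

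The family took 0.431% to 0.485% of all counts in WT on control diets and 0.362% to 0.379% in WT on glucose-rich diets. In *lpin-1(RNAi)* worms the ranges were 0.407% to 0.479% and 0.347% to 0.361%. On either RNAi the 3 libraries on glucose-rich diets lay below the 3 on control diets. A total of 8 members held 76.9% of the counts of the family. To compare genes with each other, counts were divided by exon length and scaled to a common sum (TPM). *clec-87* (chromosome I, 10184462 to 10185520, minus strand), which overlaps *iars-2* on the other strand, stood at the head of the family with 1483 ± 259.5 TPM (SD, n = 3) in WT on control diets, and it held 21.8% to 43.9% of the counts of the family in a library. *clec-63* followed with 627 ± 35.6 TPM, and *clec-1* with 423 ± 85.3 TPM. *clec-88*, *clec-91* and *clec-50* ran from 325 to 365 TPM in the same worms, so that *clec-1*, *clec-88* and *clec-91* did not differ beyond their SDs.

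**Figure D1:**
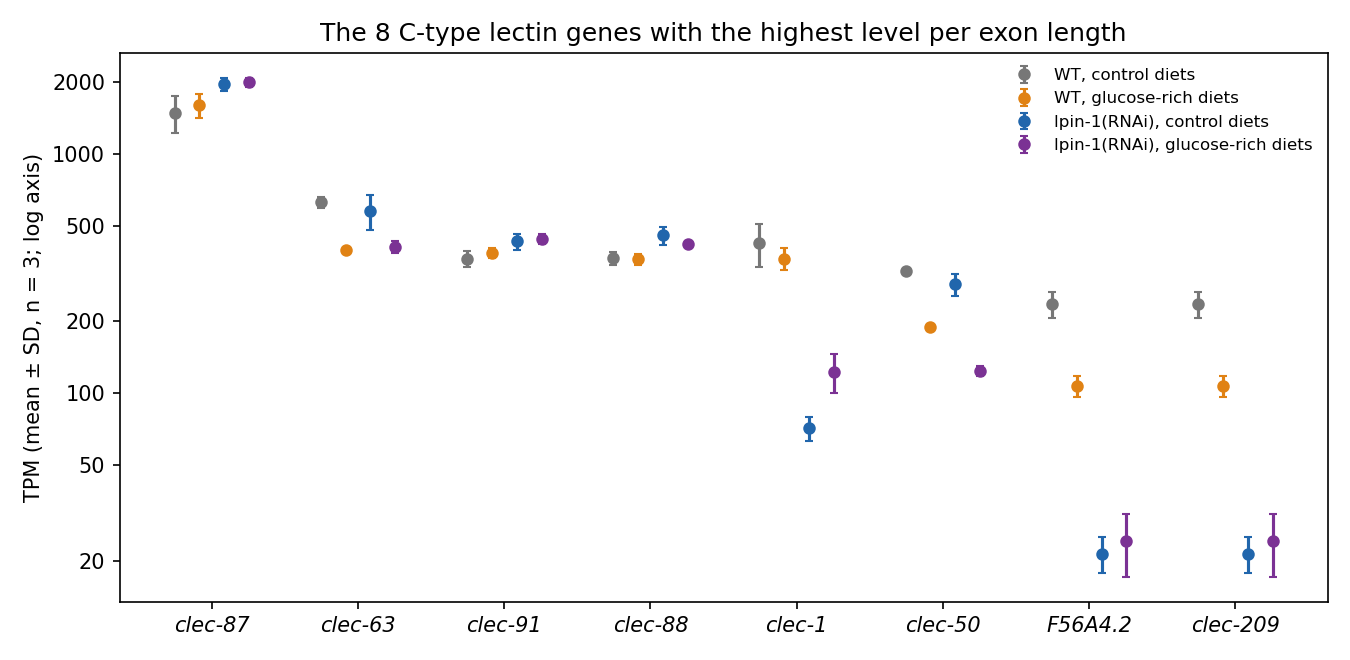
TPM (mean ± SD, n = 3, log axis) of the 8 members with the highest mean level per exon length over the 12 libraries, with 1 point for each group of RNAi and diet. *clec-87* lay above the others in every group, and *clec-1*, *clec-209* and F56A4.2 were the members with a wide gap between WT and *lpin-1(RNAi)* worms.

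At the head of the family some members varied little with RNAi or diet, some varied strongly, and others, such as *clec-63*, lay between. *clec-87* had 1407, 1432 and 1053 CPM in WT on control diets and 1327, 1477 and 1347 CPM in *lpin-1(RNAi)* worms on control diets. The libraries overlapped, and the log2 fold change was 0.09 ± 0.12, adjusted *p* = 0.576. Counted over the 4 comparisons of RNAi or diet, 8 of the 104 tested members had a log2 fold change under 0.25 in size in each one. They were *clec-87*, *clec-88*, *clec-90* and *clec-91* together with the lower *clec-104*, *clec-142*, *clec-149* and *clec-224*. *clec-88* and *clec-91*, second to *clec-87* in level among these, differed by no more than 0.11 and 0.09 on the log2 scale. These values are relative to TMM scaling, under which the median of all tested genes lay between -0.00 and 0.03 in the 4 comparisons. The count of 8 was not made over all tested genes, so no trait of the family is read from it.

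The last pair of the top 8 could not be told apart. The Ensembl table gives the name *clec-209* to WBGene00021224 and also to WBGene00018910, which RefSeq calls F56A4.2. After rounding, both genes had the same count in all 12 libraries, and 5 libraries held fractional values for them. Their values are given once below under *clec-209*, and each count of members includes both.

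Calls follow the thresholds of the study, a more than 2-fold difference and a Benjamini-Hochberg adjusted *p* under 0.05, here from edgeR's quasi-likelihood test over all 14696 tested genes. Of the 104 tested members, 68 (65.4%) were called in at least 1 of the 5 comparisons, against 20.7% of all tested genes, and 36 in none. A total of 56 members (53.8%) were called in at least 1 comparison of RNAi, against 17.8% of all tested genes, and 30 (28.8%) in at least 1 comparison of diets, against 7.11%.

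**Figure D2:**
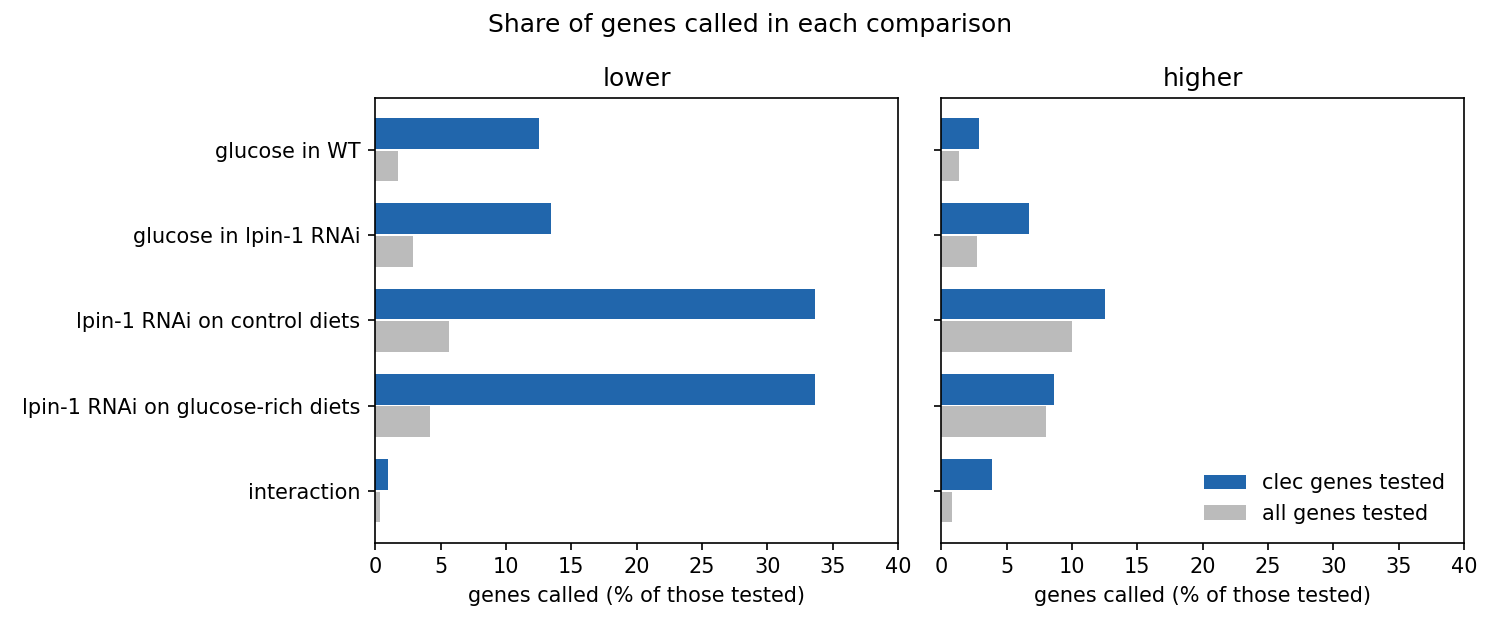
Percent of the 104 tested clec genes (blue) and of all 14696 tested genes (grey) that were called lower (left) and higher (right) in each comparison, from edgeR at an adjusted *p* under 0.05 and more than 2-fold. The blue bar reaches 33.7% among genes lower with *lpin-1* RNAi on either diet, where the grey bars stand at 5.61% and 4.21%, whereas for genes higher with *lpin-1* RNAi blue and grey bars lie close together.

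RNAi of *lpin-1* lowered many C-type lectin genes of worms on control diets. A total of 35 of the 104 tested members fell, against 5.61% of all tested genes, and 13 rose, against 10.0%. The median log2 fold change was -0.45 over the members and -0.00 over all tested genes, and 66 of the 104 members had a negative value. Fitted values ran from -5.42 to -1.04 for the 35 falls, where the first depends on the prior count since its gene, *clec-172*, had 1 count in *lpin-1(RNAi)* worms, and from 1.15 to 5.20 for the 13 rises. The libraries of the 2 groups did not overlap for any of the 48, as was the case for 98.9% of all called genes. With library totals in place of TMM, which moved the median of all genes to 0.25, 28 members fell and 18 rose, and rises made up 76.8% of all calls against 64.0%.

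Among abundant members, *clec-1* (chromosome V, 5700154 to 5701080, plus strand) fell. It had 289, 238 and 366 CPM in the WT libraries on control diets and 46.5, 36.1 and 39.4 CPM in the *lpin-1(RNAi)* libraries. The log2 fold change was -2.87 ± 0.19, adjusted *p* = 5.21e-08, so that a member near the head of the family in WT was 7.32-fold lower. The pair under *clec-209* (chromosome V, 2351676 to 2352932, plus strand) went from 187, 168 and 219.6 CPM to 12.1, 13.8 and 16.3 CPM, with a log2 fold change of -3.78 ± 0.21, adjusted *p* = 1.30e-08.

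*clec-86* (chromosome X, 7139875 to 7140566, plus strand) is known from infection work in *C. elegans* and overlaps *alh-10* on the other strand. It stood at 11.3, 10.4 and 9.29 CPM in WT on control diets and at 0.341, 0.271 and 0.213 CPM, or 11, 9 and 4 counts, in *lpin-1(RNAi)* worms. The log2 fold change was -5.17 ± 0.26, adjusted *p* = 5.59e-09, a 35.9-fold difference. *clec-85* (chromosome IV, 2850886 to 2855456, plus strand), a gene that depends on the PMK-1 p38 kinase in worms and is used as a marker of that pathway, fell from 64.5, 53.7 and 64.9 CPM to 16, 14.4 and 12.5 CPM, with a log2 fold change of -2.09 ± 0.13, adjusted *p* = 3.37e-08. It overlaps Y54G2A.40 on its own strand and Y54G2A.49 on the other.

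Members of lower level fell as far. *clec-227* (chromosome V, 14472529 to 14474374, plus strand) had 72, 84 and 112 counts in WT on control diets and 3, 3 and 4 counts in *lpin-1(RNAi)* worms, and its log2 fold change was -4.90 ± 0.37, adjusted *p* = 2.01e-07. *clec-172* (chromosome IV, 1515453 to 1516627, minus strand), which overlaps *txt-4* on the other strand, had 13, 15 and 24 counts and 0, 0 and 1 counts in the same groups. With 1 count in the lower group, the ratio of the summed counts after scaling was 60.7, with a 95% interval of 10.4 to 2443 that covers counting error only. *clec-210* fell from 0.868, 0.909 and 1.92 CPM to 0.124, 0.0603 and 0.0531 CPM (log2 fold change -3.82 ± 0.55, adjusted *p* = 9.11e-05), and overlaps *srt-56* on the other strand.

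*clec-245* fell from 1.5, 1.38 and 0.879 CPM to 0.124, 0.121 and 0.0531 CPM (log2 fold change -3.50 ± 0.55, adjusted *p* = 0.000193). *clec-53*, on chromosome I and alone, fell from 4.29, 2.98 and 4.94 CPM to 0.434, 0.302 and 0.691 CPM (log2 fold change -3.15 ± 0.32, adjusted *p* = 4.22e-06). *clec-10* and *clec-204* had log2 fold changes of -2.87 and -2.80. In all of these the 3 WT libraries lay above the 3 *lpin-1(RNAi)* libraries. Such separation was a condition for naming genes by a comparison and held for 98.9% of all called genes, so it adds no support.

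Fewer members rose with *lpin-1* RNAi, and among those that rose *clec-5*, with *clec-62* and *clec-146*, both named after their values were seen, had the higher levels per exon length afterwards. *clec-5* (chromosome III, 4881888 to 4883606, minus strand) stood at 9.26, 9.31 and 12 CPM in WT on control diets and at 90.5, 78.5 and 86.6 CPM in *lpin-1(RNAi)* worms, a log2 fold change of 3.06 ± 0.18, adjusted *p* = 2.02e-08. This 8.36-fold difference stood on large counts, from 192, 256 and 286 counts to 2917, 2604 and 1629 counts. Its neighbour *clec-6*, named after its values were seen, also rose, from 2, 3 and 2 to 15, 9 and 13 counts (log2 fold change 2.17 ± 0.65, adjusted *p* = 0.0168).

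The rises that were larger in proportion began near 0. *clec-168* (chromosome IV, 1256969 to 1259344, plus strand) had 2, 2 and 3 counts in WT on control diets and 160, 82 and 72 counts in *lpin-1(RNAi)* worms, with a log2 fold change of 5.20 ± 0.46, adjusted *p* = 1.04e-06. *clec-167* (chromosome IV, 1253137 to 1255732, minus strand), next to it on the opposite strand, went from 5, 2 and 2 to 186, 104 and 89 counts, with a log2 fold change of 5.12 ± 0.44, adjusted *p* = 8.04e-07. Both had fractional counts in 4 libraries, so that some reads were divided with other genes and the 2 rises may not be separate. *clec-229*, named after its values were seen, had 0, 0 and 3 counts against 37, 23 and 9, a ratio of 19.7 with a 95% counting interval of 6.47 to 97.9.

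*clec-221* (chromosome V, 10953453 to 10954434, minus strand), which overlaps F17C11.4 on the other strand, rose from 0.241, 0.40 and 0.502 CPM to 2.51, 3.32 and 3.03 CPM (log2 fold change 2.92 ± 0.28, adjusted *p* = 2.26e-06). *clec-140* went from 3, 3 and 0 to 38, 38 and 12 counts (log2 fold change 3.52 ± 0.56, adjusted *p* = 0.000205), but overlaps *hmg-11* and T05A7.3 on its own strand. *clec-125* went from 6, 3 and 4 to 42, 41 and 18 counts (log2 fold change 2.66 ± 0.40, adjusted *p* = 0.000144). These 3 genes had low levels in WT. *clec-145* rose with a log2 fold change of 2.13 ± 0.28, adjusted *p* = 4.10e-05. *clec-45* rose from 8, 9 and 5 to 45, 47 and 17 counts (log2 fold change 2.02 ± 0.50, adjusted *p* = 0.00582), a call that was lost without replicate 3 (adjusted *p* = 0.0528, and 0.00191 to 0.0528 over the alternatives).

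**Figure D3:**
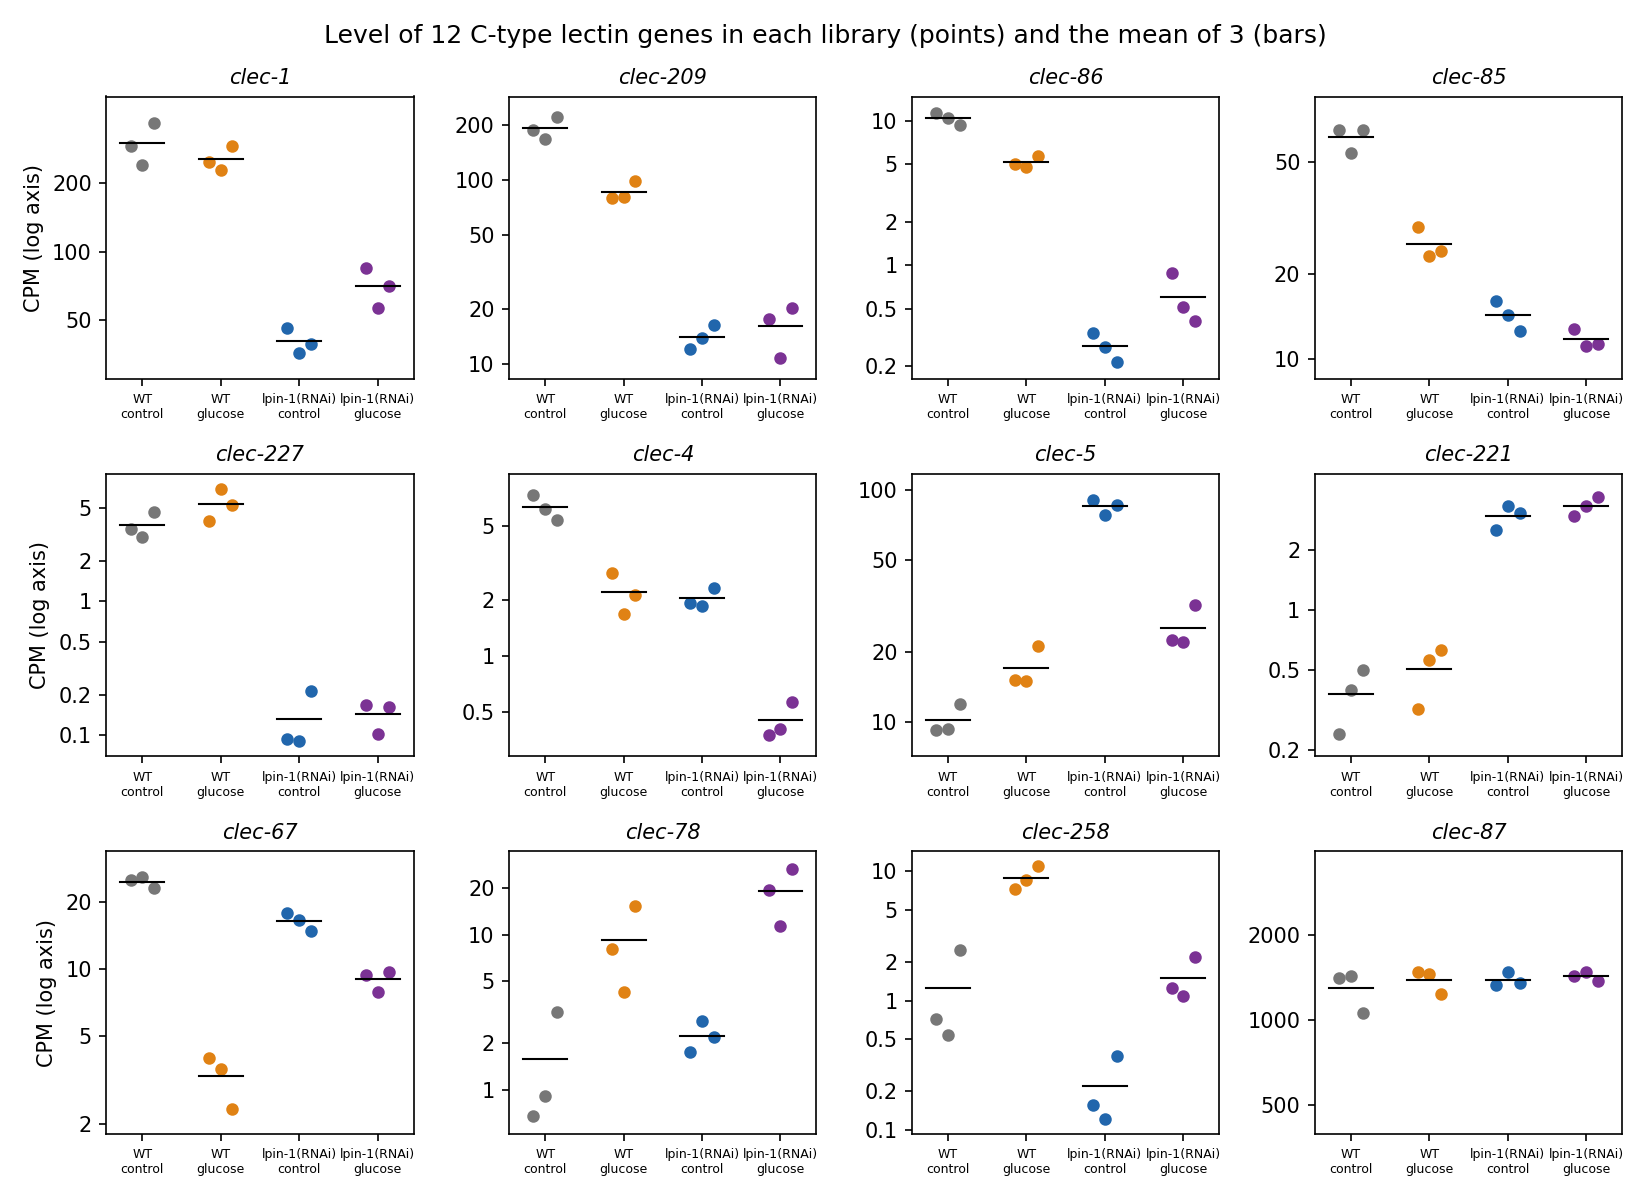
CPM of 12 members in each of the 12 libraries (points, log axes that differ between panels) with the mean of the 3 libraries of a group (bars). *clec-1*, *clec-209*, *clec-86*, *clec-85*, *clec-227* and *clec-4* lay lower in *lpin-1(RNAi)* worms on control diets, *clec-5* and *clec-221* higher, *clec-67*, *clec-78* and *clec-258* differed with glucose, and *clec-87* varied little.

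Markers of tissues were read beside these falls, since the RNA came from whole worms, in which fewer cells of a type and less RNA per cell cannot be told apart. Of 6 intestinal markers matched by name, *asp-1*, an aspartyl protease, fell from 1393, 1527 and 1510.3 CPM to 639.8, 575 and 455 CPM with *lpin-1* RNAi on control diets, and *ifb-2*, an intestinal intermediate filament gene, also fell (log2 fold change -1.14 ± 0.16, adjusted *p* = 5.94e-05). *elt-2*, the GATA factor that defines the intestine, rose from 13.5, 13.5 and 15.6 CPM to 30.6, 31.6 and 29.7 CPM, and *mtl-1*, a metallothionein gene, rose with a log2 fold change of 2.37 ± 0.40, adjusted *p* = 0.000342. The other 2 were lower but not called. On control diets *ges-1* went from 13.4, 17.2 and 17.8 CPM to 8.53, 9.62 and 7.39 CPM. *act-5* went from 382, 396 and 448 CPM to 310, 349 and 266 CPM. At an unadjusted *p* under 0.05 in edgeR, 4 of the 6 fell and 2 rose with *lpin-1* RNAi on either diet. The summed intestinal markers, of which *asp-1* made the larger share, ran from 1899 to 2106 CPM in WT and from 804 to 1031 CPM in *lpin-1(RNAi)* worms with control diets, and from 1528 to 1966 CPM and 674 to 798 CPM on glucose-rich diets. No marker of the list was at 0, and *opt-2*, also listed, did not match a name. Their part in the falls was not tested.

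The sums for hypodermal and neuronal markers rest largely on single genes, so they do not show how the rest of a list moved. Summed hypodermal markers stood at 2196 to 2698 CPM in WT and at 360.5 to 493 CPM in *lpin-1(RNAi)* worms on control diets, where *col-19* was the 1 of 6 called, and at 2199 to 2696 CPM and 871 to 1137 CPM on glucose-rich diets. Summed neuronal markers stood at 201 to 224 CPM in WT and 324 to 377 CPM in *lpin-1(RNAi)* worms over both diets, with *snb-1* the 1 of 6 called with *lpin-1* RNAi on control diets. The mean of *col-19* alone was 2401 CPM in WT and 371 CPM in *lpin-1(RNAi)* worms with control diets. That of *snb-1* was 115 and 260 CPM in the same groups, whereas *ric-4*, another neuronal marker, had 17.7 and 14.5 CPM. At an unadjusted *p* under 0.05 in edgeR, 2 of 6 neuronal markers rose with *lpin-1* RNAi on control diets and 0 fell. On glucose-rich diets 4 rose and 0 fell, with a median log2 fold change of 0.44 over the 6. Of the 6 hypodermal markers 1 fell and 0 rose on either diet at that limit. Oocyte and germline markers summed to 2629 to 3622 CPM in WT and 1966 to 2995 CPM in *lpin-1(RNAi)* worms over both diets, with 0 of 6 called by edgeR or DESeq2 in any comparison and at most 2 at an unadjusted *p* under 0.05. The 5 body wall muscle, 5 tested sperm and 3 coelomocyte markers also had 0 called by either tool, with at most 3 at an unadjusted *p* under 0.05 in a comparison, and of 5 pharyngeal markers 2 rose with *lpin-1* RNAi on glucose-rich diets and 1 with glucose in *lpin-1(RNAi)* worms. At an unadjusted *p* under 0.05 in edgeR, 4 of the 5 pharyngeal markers rose and 0 fell with *lpin-1* RNAi on glucose-rich diets. Among hypodermal markers *dpy-7* rose with glucose in WT, and *dpy-7* and *col-19* in *lpin-1(RNAi)* worms. With *lpin-1* RNAi on control diets, log2 fold changes of the 6 oocyte and germline markers ran from -0.78 to -0.07. Those of the 5 tested sperm markers ran from 0.36 to 1.56. The 5 body wall muscle markers ran from -0.33 to -0.06 with glucose in WT and from 0.16 to 0.85 in *lpin-1(RNAi)* worms. Within each of these ranges the sign was the same, and no gene was called. The part of all these markers in the results for the lectin genes was not tested.

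On glucose-rich diets *lpin-1* RNAi again lowered 35 of the 104 tested members, against 4.21% of all tested genes, and raised 9, against 8.04%. The median was -0.28 over the members and 0.03 over all tested genes. This comparison shares no library with the one on control diets. A total of 30 members fell on both diets, 85.7% of either list of 35, and 6 rose on both, 46.2% of the 13 and 66.7% of the 9. Over all tested genes, 61.5% of the falls on control diets and 82% of those on glucose-rich diets were shared, and 65.8% and 81.8% of the rises. No member was called in opposite directions in the 2 comparisons. With library totals in place of TMM, which moved the median of all genes to 0.23, 32 members fell and 13 rose, and rises made up 76.8% of all calls against 65.6%.

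*clec-227* was again among the large falls, from 3.96, 6.9 and 5.22 CPM in WT on glucose-rich diets to 0.167, 0.102 and 0.163 CPM in *lpin-1(RNAi)* worms (log2 fold change -5.20 ± 0.35, adjusted *p* = 1.51e-07). *clec-86* fell from 4.98, 4.8 and 5.65 CPM to 0.879, 0.51 and 0.408 CPM (log2 fold change -3.10 ± 0.24, adjusted *p* = 4.71e-07). *clec-166* fell from 5.62, 5.64 and 8.82 CPM to 0.67, 0.85 and 0.978 CPM (log2 fold change -3.0 ± 0.28, adjusted *p* = 2.75e-06). In each of the 3 the libraries of the 2 groups did not overlap, as the rule for naming genes required. *clec-3*, named after its values were seen, had 10, 13 and 3 counts in WT and 0 counts in all 3 *lpin-1(RNAi)* libraries on glucose-rich diets, which makes it at least 10.4-fold lower when 3 counts are taken as the floor over the group, while the 95% counting interval of the ratio starts at 7.89.

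*clec-204* fell from 4.85, 4.38 and 3.7 CPM to 0.586, 0.612 and 0.448 CPM (log2 fold change -2.95 ± 0.20, adjusted *p* = 1.29e-07), close to its value of -2.80 on control diets. *clec-10* fell from 17.3, 13.2 and 18.6 CPM to 2.39, 1.5 and 3.02 CPM (log2 fold change -2.84 ± 0.23, adjusted *p* = 9.20e-07), against -2.87 on control diets. The ranges of the 3 libraries on the 2 diets overlapped within each RNAi group for both genes. *clec-218* fell with a log2 fold change of -2.66 ± 0.46, adjusted *p* = 0.000597, although 1 *lpin-1(RNAi)* library stood apart at 13.2 CPM beside 3.43 and 3.74 CPM. With glucose *clec-218* had log2 fold changes of 1.61 ± 0.44, adjusted *p* = 0.0512 in WT and 1.59 ± 0.51, adjusted *p* = 0.0573 in *lpin-1(RNAi)* worms, and was called in neither. *clec-1* fell from 247, 228 and 290.0 CPM to 84.6, 56.6 and 70.7 CPM (log2 fold change -1.85 ± 0.18, adjusted *p* = 3.56e-06). *clec-258*, *clec-210* and *clec-53* fell by 2.58, 2.57 and 2.51 on the log2 scale.

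Among the 9 rises, *clec-167* went from 0, 2 and 2 counts in WT to 37, 57 and 29 counts in *lpin-1(RNAi)* worms given glucose-rich diets (log2 fold change 4.56 ± 0.55, adjusted *p* = 2.80e-05). *clec-168* went from 2, 1 and 0 to 25, 19 and 18 counts, a ratio of 17.2 with a 95% counting interval of 5.61 to 85.6. *clec-125* rose with a log2 fold change of 3.35 ± 0.46, adjusted *p* = 8.07e-05, from 4, 2 and 1 to 29, 32 and 30 counts. These began at or near 0 in WT, as on control diets. *clec-221* rose from 0.319, 0.56 and 0.634 CPM to 2.93, 3.3 and 3.67 CPM (log2 fold change 2.66 ± 0.27, adjusted *p* = 6.54e-06), and *clec-140* and *clec-264* rose by log2 fold changes of 2.78 and 1.61.

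Of the 3 members that rose on glucose-rich diets alone by these thresholds, *clec-67* is taken up with the interaction. *clec-180* rose from 1.41, 0.945 and 2.63 CPM to 3.64, 4.86 and 4.56 CPM (log2 fold change 1.41 ± 0.29, adjusted *p* = 0.00241), a call lost without replicate 2 at a log2 fold change of 1.00 (adjusted *p* 8.51e-05 to 0.0424 over the alternatives). *clec-55*, which overlaps R02D5.10 on its own strand and R02D5.7 on the other, rose with a log2 fold change of 1.71 ± 0.48, adjusted *p* = 0.0154, a call lost without replicate 1 or 3 (adjusted *p* up to 0.134, and from 0.00824 to 0.134 over the alternatives). On control diets *clec-55* had a log2 fold change of 1.26 ± 0.48, adjusted *p* = 0.0513. Whether these differed between diets is given by the interaction, in which neither was called.

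Glucose-rich diets changed fewer members than *lpin-1* RNAi did. In WT worms 13 of the 104 tested members fell, against 1.78% of all tested genes, and 3 rose, against 1.35%. The median was -0.28 over the members and -0.00 over all tested genes, with 68 of the 104 members negative, against 50.6% of all tested genes. No groups overlapped among the 16, as in 99.3% of all called genes. The count of falls was 6 without replicate 1 and 7 without replicate 3, and the count of rises was 1 without replicate 1. Calls over all tested genes also dropped, from 461 to 170 without replicate 1 and to 192 without replicate 3. With at least 10 counts required in every library, 59 members were left and 8 of them fell. That filter called 275 of 11893 genes over the whole table.

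*clec-67* (chromosome IV, 3922165 to 3925039, plus strand), a PMK-1-dependent gene in worms, had the fall of largest fitted size of the 13. It stood at 25.2, 26.1 and 23.2 CPM on control diets and 3.96, 3.54 and 2.34 CPM on glucose-rich diets, and the log2 fold change was -2.93 ± 0.17, adjusted *p* = 4.79e-07. *clec-4* (chromosome II, 12578331 to 12581113, minus strand) fell from 7.33, 6.22 and 5.4 CPM to 2.81, 1.68 and 2.14 CPM (log2 fold change -1.53 ± 0.22, adjusted *p* = 0.000902). *clec-85* fell from 64.5, 53.7 and 64.9 CPM to 29.4, 23.2 and 24.1 CPM (log2 fold change -1.26 ± 0.12, adjusted *p* = 5.30e-05). For these 3 genes of the infection list the libraries of the 2 diets did not overlap, as the rule for naming genes required.

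*clec-265*, on the X chromosome, fell from 19.4, 18.6 and 20.8 CPM to 8.94, 6.3 and 9.02 CPM (log2 fold change -1.29 ± 0.17, adjusted *p* = 0.000557). *clec-65* fell from 105, 102 and 127 CPM to 48.7, 48.9 and 52.3 CPM (log2 fold change -1.16 ± 0.12, adjusted *p* = 0.000105). *clec-209* fell with a log2 fold change of -1.15 ± 0.19, adjusted *p* = 0.00265, a call lost without replicate 1 (adjusted *p* = 0.093, and 4.00e-07 to 0.093 over the alternatives). A further 3 falls were in members of low level and were lost without single replicates. *clec-172* went from 13, 15 and 24 to 2, 4 and 6 counts (log2 fold change -1.93, adjusted *p* = 0.0494, and 0.0181 to 0.352 over the alternatives). *clec-143* went from 31, 18 and 23 to 5, 7 and 8 counts (log2 fold change -1.70, adjusted *p* = 0.0288, and 0.00896 to 0.387 over the alternatives). *clec-72* had a log2 fold change of -1.19 (adjusted *p* = 0.0327, and 0.0176 to 0.278 over the alternatives). *clec-139* fell by 1.20 on the log2 scale and lost its call without replicate 1 or 3 (adjusted *p* 0.00122 to 0.212 over the alternatives).

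Among the 3 rises, *clec-258* (chromosome V, 19788440 to 19789385, plus strand) went from 0.723, 0.545 and 2.47 CPM to 7.35, 8.58 and 11 CPM (log2 fold change 2.85 ± 0.45, adjusted *p* = 0.00228). *clec-78* (chromosome IV, 3989102 to 4014235, plus strand) went from 0.675, 0.909 and 3.18 CPM to 8.11, 4.27 and 15.3 CPM (log2 fold change 2.52 ± 0.56, adjusted *p* = 0.02). In both genes 1 control library, replicate 3, stood above the other 2, and both calls were lost without replicate 1 (adjusted *p* = 0.0775 for *clec-258* and 0.249 for *clec-78*, with ranges of 1.00e-07 to 0.0775 and 0.00087 to 0.249 over the alternatives). A total of 7 annotated genes overlap *clec-78* on the other strand. *clec-222* rose from 6.46, 6.65 and 7.62 CPM to 15.7, 12.8 and 16.6 CPM (log2 fold change 1.12 ± 0.15, adjusted *p* = 0.000766) and kept its call under every alternative run.

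In *lpin-1(RNAi)* worms glucose lowered 14 of the 104 tested members, against 2.86% of all tested genes, and raised 7, against 2.7%. The median was -0.27 over the members and -0.00 over all tested genes. The count of rises was 2 without replicate 1 and 4 without replicate 3, and the count of falls was 8 without replicate 1. Over all tested genes calls went from 817 to 328 without replicate 1 and to 538 without replicate 3. With library totals in place of TMM 19 fell and 5 rose, and rises made up 38.5% of all calls against 48.6%. This comparison shares no library with the glucose comparison in WT. A total of 4 members fell in both, *clec-4*, *clec-139*, *clec-143* and *clec-265*, which is 30.8% of the 13 and 28.6% of the 14, and *clec-78* and *clec-258* rose in both, 66.7% of the 3 and 28.6% of the 7. Over all tested genes the shared falls were 34.4% and 21.4% of the 2 lists, and the shared rises 70.4% and 35.3%.

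*clec-4* fell from 1.92, 1.87 and 2.34 CPM to 0.377, 0.408 and 0.571 CPM with glucose in *lpin-1(RNAi)* worms (log2 fold change -2.16 ± 0.26, adjusted *p* = 0.000163). Since *lpin-1* RNAi lowered it as well, its mean was 6.32 ± 0.97 CPM in WT on control diets and 0.452 ± 0.104 CPM (SD, n = 3) in *lpin-1(RNAi)* worms given glucose-rich diets, the low end of the 4 groups. *clec-265* fell from 12.3, 8.17 and 9.56 CPM to 3.18, 3.4 and 3.42 CPM (log2 fold change -1.59 ± 0.18, adjusted *p* = 8.30e-05). *clec-139*, which overlaps *pqn-35* on the other strand, fell from 3.88, 2.77 and 2.82 CPM to 0.628, 0.476 and 0.856 CPM (log2 fold change -2.28 ± 0.30, adjusted *p* = 0.000237). These 3 were lowest in *lpin-1(RNAi)* worms given glucose-rich diets. *clec-143* was lost as a call without each replicate in turn (log2 fold change -1.40, adjusted *p* 0.0497, and 0.02 to 0.244 over the alternatives).

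*clec-50* (chromosome V, 19752399 to 19755368, minus strand), sixth in level of the family, fell from 246, 226 and 192 CPM to 97.8, 91.5 and 102 CPM with glucose in *lpin-1(RNAi)* worms (log2 fold change -1.19 ± 0.09, adjusted *p* = 4.08e-06). In WT it went from 305, 308 and 321 CPM to 183, 179 and 175 CPM, and its log2 fold change of -0.80 (adjusted *p* = 0.000202) was under the limit on fold change. Its values are fractional in all 12 libraries, as are those of its neighbour *clec-49*. *clec-66* fell with a log2 fold change of -1.38 ± 0.20, adjusted *p* = 0.000537, and in WT its value was -0.97.

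Several members that *lpin-1* RNAi had raised on control diets were lower on glucose-rich diets. *clec-5* went from 90.5, 78.5 and 86.6 CPM to 22.6, 22.3 and 31.9 CPM (log2 fold change -1.74 ± 0.17, adjusted *p* = 2.09e-05). *clec-168* went from 4.96, 2.47 and 3.83 CPM to 1.05, 0.646 and 0.734 CPM (log2 fold change -2.22 ± 0.33, adjusted *p* = 0.00077). *clec-45* went from 45, 47 and 17 to 0, 7 and 4 counts (log2 fold change -3.13 ± 0.56, adjusted *p* = 0.0025). All 3 also belong to the comparison of RNAi on control diets, with which this one has the *lpin-1(RNAi)* control-diet libraries in common. *clec-167* (log2 fold change -1.53) and *clec-169* (-2.20) fell too, but lost their calls without replicate 1 or 3 (adjusted *p* up to 0.112 and 0.0722, and from 0.000288 to 0.112 and 9.92e-05 to 0.0722 over the alternatives). Unlike *clec-167*, *clec-169* had not been called with *lpin-1* RNAi on either diet. *clec-3*, which *lpin-1* RNAi had lowered on both diets, went from 5, 4 and 5 counts to 0 in all 3 libraries. That was at least 4.31-fold lower against the same floor, with a counting interval that starts at 3.07.

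*clec-78* rose from 1.74, 2.77 and 2.18 CPM to 19.3, 11.4 and 26.4 CPM with glucose in *lpin-1(RNAi)* worms (log2 fold change 3.08 ± 0.54, adjusted *p* = 0.002). *clec-258* rose from 0.155, 0.121 and 0.372 CPM to 1.26, 1.09 and 2.16 CPM (log2 fold change 2.91 ± 0.62, adjusted *p* = 0.00755). Both calls were lost without replicate 1 (adjusted *p* = 0.0676 and 0.119, with ranges of 3.72e-05 to 0.0676 and 1.48e-05 to 0.119 over the alternatives). *clec-223*, the neighbour of *clec-222*, rose from 8.56, 12.6 and 11.9 CPM to 28.8, 29.2 and 24.6 CPM (log2 fold change 1.32 ± 0.22, adjusted *p* = 0.00153). In WT *clec-223* had a log2 fold change of 0.81 ± 0.22, adjusted *p* = 0.0544. The neighbours therefore had positive values with glucose in both RNAi groups, and each was called in 1. *clec-266*, on the X chromosome and overlapping *kqt-1* on the other strand, rose with a log2 fold change of 1.04 ± 0.18, adjusted *p* = 0.00195, a value of 0.86 without replicate 1 and of 0.95 with library totals. *clec-82*, on the infection list, rose from 4, 2 and 1 to 10, 11 and 24 counts (log2 fold change 2.75 ± 0.56, adjusted *p* = 0.00569) and lost its call without replicate 3 (adjusted *p* 0.00254 to 0.091 over the alternatives). *clec-180* rose by 1.15 and lost its call without each replicate in turn (adjusted *p* 0.00311 to 0.137 over the alternatives).

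The interaction asks whether glucose changed a gene by a different amount in *lpin-1(RNAi)* worms than in WT. It was called for 4 members with a higher value in *lpin-1(RNAi)* worms, against 0.81% of all tested genes, and for 1 with a lower value, against 0.374%. *clec-5* was the member with the lower value. Glucose went with a higher level in WT, 15.1, 15.1 and 21.2 CPM against 9.26, 9.31 and 12 (log2 fold change 0.75 ± 0.17, adjusted *p* = 0.0252), and with a lower level in *lpin-1(RNAi)* worms, as given above. The difference between the 2 effects was -2.49 ± 0.24, adjusted *p* = 0.000251, and the call held under every alternative run.

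*clec-67* fell more in WT than in *lpin-1(RNAi)* worms. In *lpin-1(RNAi)* worms it went from 18, 16.7 and 14.9 CPM on control diets to 9.42, 7.88 and 9.7 CPM on glucose-rich diets (log2 fold change -0.88 ± 0.16, adjusted *p* = 0.00235). The difference between the effects was 2.05 ± 0.23, adjusted *p* = 0.000757. On glucose-rich diets *clec-67* was therefore higher in *lpin-1(RNAi)* worms than in WT by 1.46 (adjusted *p* = 2.36e-05), whereas on control diets the value was -0.59 (adjusted *p* = 0.00741). The interaction call was lost without replicate 1 or 3 (adjusted *p* up to 0.0615, and 6.77e-15 to 0.0615 over the alternatives).

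*clec-86* went down with glucose in WT, from 11.3, 10.4 and 9.29 CPM to 4.98, 4.8 and 5.65 CPM, and up in *lpin-1(RNAi)* worms, from 11, 9 and 4 to 21, 15 and 10 counts. It was the 1 member called in opposite directions, with log2 fold changes of -1.01 and 1.06 and a difference of 2.06 ± 0.37, adjusted *p* = 0.0121. The fall in WT was also lost with the replicate block, and the rise in *lpin-1(RNAi)* worms, at an adjusted *p* of 0.0452, also with library totals, DESeq2, no filter or only the 2 groups compared (adjusted *p* 2.13e-05 to 0.0791 and 0.0344 to 0.403 over the alternatives). Each of the 3 calls was lost without replicate 1, 2 or 3 (adjusted *p* of the difference up to 0.214, and 0.000356 to 0.214 over the alternatives). *clec-209* fell with glucose in WT and not detectably in *lpin-1(RNAi)* worms, where it had 12.1, 13.8 and 16.3 CPM on control and 17.5, 10.8 and 20.0 CPM on glucose-rich diets. The difference was 1.35 ± 0.27, adjusted *p* = 0.0235, lost without replicate 1 or 3 (adjusted *p* up to 0.613, and 0.000189 to 0.613 over the alternatives). Without replicate 1 or 3 edgeR called 0 of the 4, and 22 and 3 genes over the whole table.

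**Figure D4:**
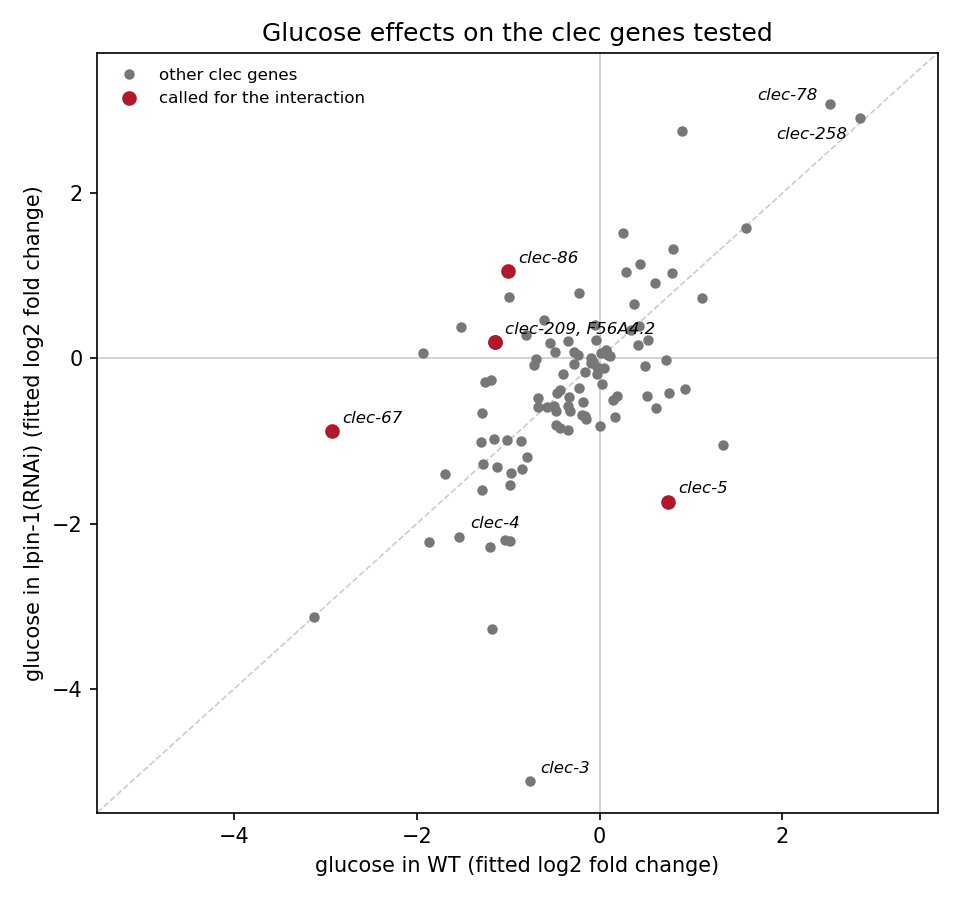
Fitted log2 fold change with glucose in WT (horizontal) and in *lpin-1(RNAi)* worms (vertical) for the 104 tested clec genes, with members called for the interaction in red and the line of equal effects dashed. *clec-5* lies below the line, *clec-67*, *clec-86* and *clec-209* with F56A4.2 above it, and *clec-78*, *clec-258* and *clec-4* have effects of the same direction in both. The value of *clec-3* is a fit against 0 counts.

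A list of 17 members known from infection work was read as a group, chosen with earlier results of these data known. Of the 17, 11 were tested. With glucose in WT 6 fell, *clec-4*, *clec-41*, *clec-65*, *clec-67*, *clec-85* and *clec-86*, with a median log2 fold change of -1.01 over the 11. With glucose in *lpin-1(RNAi)* worms *clec-4* and *clec-66* fell and *clec-82* and *clec-86* rose, with a median of -0.31. With *lpin-1* RNAi 5 fell on control diets (median -1.21), and 5 fell and *clec-67* rose on glucose-rich diets, with a median of -0.97. No member of the list rose by edgeR or DESeq2 with glucose in WT or with *lpin-1* RNAi on control diets, where 0 and 1 had a positive value at an unadjusted *p* under 0.05. Falls over all tested genes were 1.78% with glucose in WT, 2.86% with glucose in *lpin-1(RNAi)* worms, and 5.61% and 4.21% with *lpin-1* RNAi on control and glucose-rich diets, and over the 104 tested members 12.5%, 13.5%, 33.7% and 33.7%. Since the list was chosen with results known, nothing particular to it is read from these counts. The summed level of the list was 340.4 to 395 CPM in WT on control diets, 165 to 186 CPM in WT on glucose-rich diets, 310.1 to 380.1 CPM in *lpin-1(RNAi)* worms on the control diet and 155 to 204 CPM in *lpin-1(RNAi)* worms given glucose-rich diets. The ranges of the 2 groups on control diets overlapped, as did those on glucose-rich diets. In WT on control diets the sum rested largely on *clec-41* and *clec-65*. With *lpin-1* RNAi *clec-41* had positive log2 fold changes, 0.73 on control and 0.75 on glucose-rich diets. The overlap of the sums therefore does not show that the members were unchanged.

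*clec-41*, a gene studied in *C. elegans* fed *Bacillus thuringiensis*, had values of opposite sign with *lpin-1* RNAi and with glucose. It stood at 112, 97.6 and 118 CPM in WT and 202, 171 and 171 CPM in *lpin-1(RNAi)* worms on control diets (log2 fold change 0.73 ± 0.12, adjusted *p* = 0.000383), which is under the limit of 2-fold. With glucose its log2 fold changes were -1.01 in WT, a call lost without replicate 3 (-0.97), and -0.99 in *lpin-1(RNAi)* worms. *clec-49*, needed in worms for normal survival on *Serratia*, fell with *lpin-1* RNAi on control diets (log2 fold change -1.21 ± 0.15, adjusted *p* = 1.77e-05) and on glucose-rich diets (-1.55 ± 0.15, adjusted *p* = 3.34e-06), and with library totals the first value was -0.96. Its counts were fractional in all 12 libraries, so some reads were divided with other genes, which were not identified. *clec-52*, known from *Staphylococcus* infection of worms, fell with *lpin-1* RNAi on control diets from 11, 10 and 32 to 6, 7 and 2 counts (log2 fold change -2.04 ± 0.60, adjusted *p* = 0.0151), a call lost without replicate 1 or 3 (adjusted *p* 0.00954 to 0.151 over the alternatives). *clec-7* had log2 fold changes of -0.84 and -0.89 with *lpin-1* RNAi on control and glucose-rich diets and was called in neither.

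The other 6 of the list could not be tested. *clec-17*, *clec-39*, *clec-42*, *clec-60*, *clec-70* and *clec-71* had between 0 and 7 counts in a library. *clec-39* and *clec-60* are among the lectin genes with the best known part in worm infection, *clec-39* in survival on *Serratia* and *clec-60* as a gene induced by *Staphylococcus aureus*. At this depth no difference between groups could be read for them.

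Members that lie side by side did not always move together. The 5 runs with at least 4 tested members, a limit set after the values were seen, are described with *lpin-1* RNAi. In the run of *clec-57*, *clec-227*, *clec-56*, *clec-54* and *clec-55* (chromosome V, 14469231 to 14482317) 4 of 5 fell on control diets and 3 of 5 on glucose-rich diets. *clec-56* stood at 49, 40.9 and 55.5 CPM in WT and 23, 17.3 and 17.6 CPM in *lpin-1(RNAi)* worms on control diets (log2 fold change -1.32 ± 0.14, adjusted *p* = 5.59e-06), and *clec-54* had a log2 fold change of -2.25 ± 0.25, adjusted *p* = 1.05e-05. *clec-57* had -1.04 ± 0.26, adjusted *p* = 0.00647 on control diets and -0.94 ± 0.27, adjusted *p* = 0.0163 on glucose-rich diets. *clec-55*, the last of the run, had positive values on both diets.

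In the run of *clec-165* to *clec-170* (chromosome IV, 1245171 to 1274425) 2 of 6 rose and 2 fell on each diet. *clec-166* fell from 5.64, 3.96 and 3.47 CPM to 0.961, 1.39 and 1.49 CPM on control diets (log2 fold change -1.78 ± 0.27, adjusted *p* = 0.000131), and *clec-167*, the next gene, was among the large rises. *clec-168* rose as well. At the far end *clec-170* fell (log2 fold change -1.23 ± 0.28, adjusted *p* = 0.00289 on control and -1.82 ± 0.28, adjusted *p* = 0.00021 on glucose-rich diets). *clec-165* was called on neither diet, with values of -0.06 and -0.71, and *clec-169* had 0.46 and -0.70.

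In the run from *clec-62* to *clec-66* (chromosome II, 12893062 to 12906644), 4 of 5 members were tested. *clec-62* rose with *lpin-1* RNAi on control diets, from 23.7, 25.9 and 23.9 CPM to 65.5, 54 and 46.1 CPM (log2 fold change 1.17 ± 0.11, adjusted *p* = 2.80e-06), and *clec-63*, second in level of the family, had -0.43 ± 0.11, adjusted *p* = 0.00896. *clec-66* fell on glucose-rich diets (log2 fold change -1.07 ± 0.20, adjusted *p* = 0.00114), a call lost without replicate 1 and with library totals (-0.87 at the least). With glucose *clec-63* had log2 fold changes of -0.67 in WT (adjusted *p* = 0.00371) and -0.48 in *lpin-1(RNAi)* worms (adjusted *p* = 0.0142), neither past the limit on fold change.

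In the run from *clec-80* to *clec-85* (chromosome IV, 2823746 to 2855456) *clec-85* was the 1 of 5 that fell with *lpin-1* RNAi, on control diets and also on glucose-rich diets (-1.12 ± 0.13, adjusted *p* = 1.81e-05, and -0.92 with library totals). *clec-83* had log2 fold changes of 0.37 and 0.37 and *clec-84* of -0.07 and -0.02 on the 2 diets. In the run around *clec-67* (chromosome IV, 3922165 to 3975721) 5 of 13 members were tested, and *clec-67* was the 1 called with *lpin-1* RNAi, on glucose-rich diets. With glucose in WT *clec-67* and *clec-72* fell. Smaller runs in which both tested members fell with *lpin-1* RNAi on both diets were those of *clec-4* with *clec-8*, *clec-186* with *clec-187* and *clec-204* with *clec-205*. *clec-186*, at 69.9, 78 and 74.6 CPM in WT and 18.8, 16.3 and 15.9 CPM in *lpin-1(RNAi)* worms on control diets, had a log2 fold change of -2.12 ± 0.10, adjusted *p* = 4.46e-09.

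**Figure D5:**
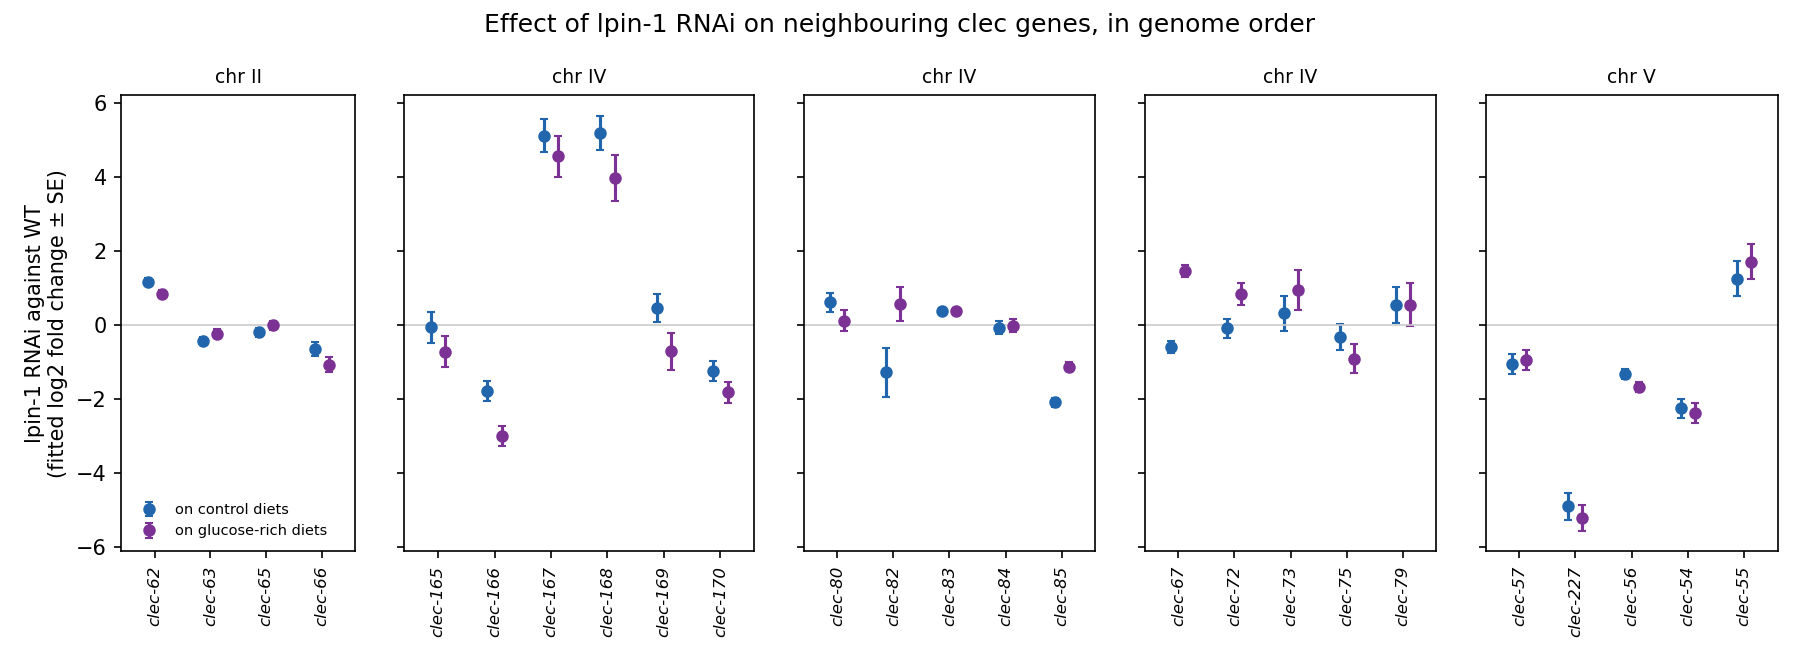
Fitted log2 fold change (± SE) with *lpin-1* RNAi on control diets (blue) and on glucose-rich diets (purple) for the tested members of the 5 runs with at least 4 tested members, in genome order within each panel. In the run of *clec-57* to *clec-55* 4 of 5 lie below 0, whereas in the run of *clec-165* to *clec-170* *clec-167* and *clec-168* lie far above 0 beside *clec-166* and *clec-170* below it.

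Regulators of intestinal and epidermal defence genes were counted from a list of 30, all tested. With glucose 0 of 30 were called by edgeR or DESeq2 in WT and 0 in *lpin-1(RNAi)* worms, with log2 fold changes between -0.75 and 0.63, and 1 up and 1 down in WT and 2 up and 5 down in *lpin-1(RNAi)* worms at an unadjusted *p* under 0.05. With *lpin-1* RNAi 6 rose on control and 3 on glucose-rich diets, with medians of 0.51 and 0.38 (rises over all tested genes were 10.0% and 8.04%, so that the 3 of 30 lie near that share), and 0 fell by either tool, also at an unadjusted *p* under 0.05. *pqm-1*, a zinc finger transcription factor of stress and metabolic genes, rose from 16.9, 15.1 and 16.5 CPM to 63.8, 58.1 and 57.2 CPM on control diets (log2 fold change 1.88 ± 0.12, adjusted *p* = 4.41e-08). *vhp-1*, a phosphatase that restrains stress MAP kinases, had a log2 fold change of 2.87 ± 0.14, adjusted *p* = 5.13e-09. *elt-2* and *elt-7*, GATA factors of the intestine, and *sma-2* and *sma-4*, SMAD genes of the DBL-1 pathway, were the other 4 that rose on control diets, and *pqm-1*, *vhp-1* and *svh-1* those on glucose-rich diets. *elt-2* is also on the list of intestinal markers. *pmk-1* and *sek-1*, kinases of the p38 pathway on which *clec-85* depends in worms, had log2 fold changes of 0.45 and 0.39 with *lpin-1* RNAi on control diets and were not called.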

How the data were processed

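RNA-seq was made by the authors from total RNA of whole adult worms with a stranded kit, and the submitters' processing notes name STAR 2.7.0e, RSEM 1.3.1, DESeq2 1.22.2 and the build WBcel235 (ce11) without saying which step each served. The deposited values are expected counts per gene, 1 table a library, estimated by the authors by dividing reads that match several genes. How strand was used in counting is not given in the sources used here, so reads of a gene and of a gene overlapping it may be mixed. Of 46778 gene IDs, 43843 had a symbol and 46603 were found in the annotation, from which coordinates (WBcel235) and exon lengths came, and 1903 genes had a fractional count in at least 1 library.

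Expected counts were rounded, genes were filtered with filterByExpr (minimum count 10), scaled by TMM, and tested in edgeR 4.0.16 (R 4.3.3, limma 3.58.1) by quasi-likelihood in a fit over all 12 libraries (8 residual degrees of freedom, prior count 0.125). Calls needed a Benjamini-Hochberg adjusted *p* under 0.05 and an absolute log2 fold change above 1. Total counts per library, 16546027 to 31534284, set the precision of single values, and intervals and floors (3 counts) cover counting error only. Named genes were the 8 largest rises and falls among called members in each comparison with libraries that do not overlap and at least 10 counts in every library of 1 group (for the interaction no overlap rule), the 8 members with the highest level per exon length, the infection list and *lpin-1*, and others are said to have been chosen after their values were seen or are given for their run or their other comparison. The members and lists (17 infection genes, 30 regulators, and markers of intestine, hypodermis, body wall muscle, pharynx, neurons, sperm, oocyte and germline, and coelomocytes) were chosen with earlier results of these data known. Alternatives were RLE scaling, library totals, DESeq2 1.42.0, no filter, a filter of 10 counts in every library, fits of the 2 groups compared, a replicate block, and leaving out each replicate number.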

Additional observations from a re-analysis of the deposited data

Results flagged for a closer look

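The glucose effect differed between WT and *lpin-1(RNAi)* worms by a test of the difference itself, the interaction in edgeR's quasi-likelihood fit over all tested genes, for 5 members. The log2 fold change with glucose in *lpin-1(RNAi)* worms minus that in WT was -2.49 for *clec-5*, 2.05 for *clec-67* and 2.06 for *clec-86*. It was 1.35 for *clec-209* and 1.35 for F56A4.2, whose reads could not be told apart. *clec-5* kept its call under every alternative run, whereas *clec-67*, *clec-209* and F56A4.2 lost theirs without replicate 1 or 3 and *clec-86* without any 1 of the replicates. The level of *col-19*, a hypodermal marker, also differed in its glucose effect, by 1.36 (adjusted *p* = 0.00368). The part of tissue markers in these differences was not tested.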

How the results depend on the processing

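Of 95 calls of named genes in a comparison, none changed direction under the alternatives run. Calls were lost for 0 with RLE scaling, 5 with library totals, 4 with DESeq2, 2 with no filter, 5 of 87 with only the 2 groups compared, 25 without replicate 1, 10 without replicate 2 and 21 without replicate 3, and 0 of the 50 that could be tested with 10 counts required in every library. That filter, which left 59 of the 104 members, gave 8 falls with glucose in WT, 4 rises and 8 falls with glucose in *lpin-1(RNAi)* worms, 6 rises and 20 falls with *lpin-1* RNAi on control diets, and 3 rises and 22 falls on glucose-rich diets. Over all genes it called 275 and 509 with glucose in WT and *lpin-1(RNAi)* worms, against 461 and 817 in the main fit. With *lpin-1* RNAi it called 1575 and 1213 on control and glucose-rich diets, against 2294 and 1799.

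Leaving out a replicate number gave 1 to 4 rises and 6 to 10 falls with glucose in WT, and 2 to 5 rises and 8 to 15 falls with glucose in *lpin-1(RNAi)* worms. It gave 11 to 14 rises and 31 to 34 falls with *lpin-1* RNAi on control diets, and 8 to 10 rises and 32 to 36 falls on glucose-rich diets. For the interaction it gave 0 to 5 members with a higher and 1 to 2 with a lower value. Over all tested genes it gave 170 to 522 calls with glucose in WT and 328 to 1035 in *lpin-1(RNAi)* worms. With *lpin-1* RNAi it gave 2053 to 2227 on control and 1558 to 1733 on glucose-rich diets, and for the interaction 3 to 212. Each of these fits has fewer libraries in a group than the main fit, and the cause of the lost calls was not tested.

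Replicate numbers were shared by the groups. All 18 pairs of same-numbered libraries had a positive correlation of deviations (mean 0.217, lowest 0.0365), and 12 of them were over 0.1. The mean was -0.108 for pairs with different numbers. Deviations were taken from the mean of each group, so this second mean largely follows from the first and is not further support. All 12 libraries correlated best with their own number, a hint from the data that the numbers pair the libraries. The main fit left such a pairing out, since the paper's main text names no covariate. With a replicate block, genes called with glucose in WT went from 461 to 762 over all tested genes. With a replicate block 4 members rose and 16 fell with glucose in WT, 8 rose and 17 fell with glucose in *lpin-1(RNAi)* worms, 16 rose and 36 fell with *lpin-1* RNAi on control diets, 11 rose and 35 fell on glucose-rich diets, and the interaction had 4 higher and 1 lower. With the block the call of *clec-86* with glucose in WT was lost, and no other call of a named gene.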
